A study of Mus musculus with 37 samples.

Results

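The replication-dependent histone genes make the bulk histones that package newly replicated DNA, and 66 of the 55401 genes in the deposited table of the total RNA libraries belonged to them by symbol (H1f1 to H1f5, H2ac, H2bc, H3c and H4c followed by a number, and the older Hist names). They were 5 genes of the linker histone H1, 20 of H2A, 17 of H2B, 12 of H3 and 12 of H4. In GENCODE M21, on the mm10 build, 56 of them lie on chromosome 13 and 10 on chromosome 3. That annotation labels at least H2ac14 and H2ac5-ps as unprocessed pseudogenes. The rule used names alone and no measured value. Because the copies share sequence, each histone type was described first by the summed level of its copies and then copy by copy.

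The study asked how loss of BAP1, a deubiquitinase that removes ubiquitin from histone H2A, alters mouse oocytes and the embryos that come from them. Control females were Bap1 flox/flox. Knockout females carried Gdf9-iCre and Bap1 flox/flox, so that recombination is driven by the Gdf9 promoter, which is active in growing oocytes. Both groups of females thus carry the floxed allele and only the knockouts carry iCre. Embryos of both groups had a B6 father, whose Bap1 allele is intact, and were cultured in KSOM medium. Knockout embryos thus came from eggs without intact maternal Bap1 and carry the paternal allele. The ages of the females and the number of oocytes or embryos per library are not given in the labels. The 26 libraries were made from total RNA, without selection of poly(A) tails, and covered fully grown oocytes (FGO), eggs arrested in metaphase of meiosis II (MII), late 1-cell embryos (L1C), early 2-cell embryos (E2C) and late 2-cell embryos (L2C). E2C had 3 control and 3 knockout libraries, and each other stage had 2 control and 3 knockout libraries. Nothing in the labels says whether libraries of a group came from separate females, so the p-values measure the spread between these libraries, which may be technical.

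Replication-dependent histone transcripts are the animal mRNAs that end in a conserved stem-loop and not in a poly(A) tail. The stem-loop binding protein SLBP holds that end through processing, export and translation, and the mRNAs are made and destroyed with S phase in most cells. Oocytes are an exception, since they store histone mRNAs long before the embryo replicates its DNA, and a 2-cell embryo goes through S phase while its own genome is being switched on. Most copies of a core histone type (H2A, H2B, H3 or H4) encode the same or nearly the same protein, which does not hold for the H1 genes. A few copies are known mainly from germ cells, among them H2ac1 and H2bc1. Protein sequences were not compared here.

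The stem-loop is shown first because it is the feature that sets these transcripts apart in a total RNA library. The pattern searched was GG, 2 bases of any kind, CTT, any base, T, any base, AG, 2 bases of any kind and CC, on the transcribed strand of the annotated exons. It was found in 42 of the 66 genes, against 201 of 55450 annotated genes (0.362%). The forms found are printed 5′ to 3′ with the 4-base loop in capitals.

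24 genes, among them H2ac18, H2ac19, H2bc11 and Hist1h2bp: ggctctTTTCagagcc
6 genes, all H4, among them H4c3, H4c4, H4c6 and H4c8: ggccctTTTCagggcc
H2bc3, H2bc12, H3c3, H3c6 and H3c7: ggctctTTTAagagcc
H4c9 and H4c14: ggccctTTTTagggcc
H4c2 and H4c11: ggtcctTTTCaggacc
H4c1: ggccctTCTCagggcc
H3c8: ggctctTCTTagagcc
H2ac20: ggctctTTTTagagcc

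H1f1 and the germ-cell copies H2ac1 and H2bc1 had no match in their annotated exons, which says only that these letters are not in that annotation. The pattern was found in 3 of 5 H1 genes, 10 of 20 H2A, 9 of 17 H2B, 9 of 12 H3 and 11 of 12 H4 genes.

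The upstream sequences are shown for genes with different courses through the stages. RefSeq promoter windows on GRCm38.p6, reaching from 250 bases before to 50 bases after the start, were matched for 58 genes. The box CCAAT was found on either strand in 50 of the 58 (86.2%), against 37.9% of 27025 promoters of all genes. It was in every matched H1, H2A, H2B and H3 promoter and in 3 of 11 H4 promoters. The TATA box TATAAA was in 34 of 58 (58.6%, against 14.2%). The octamer ATTTGCAT, a known element of histone gene promoters, was in 12 of 58 (20.7%, against 1.75%), of which 6 were H2A and 6 were H2B. In 0 of the 58 did matches of different motifs overlap. Upstream sequence is printed 5′ to 3′ on the strand of the gene, with the 3 motifs in capitals on whichever strand they lie.

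H1f1 (chr13:23763418-23763667, plus strand): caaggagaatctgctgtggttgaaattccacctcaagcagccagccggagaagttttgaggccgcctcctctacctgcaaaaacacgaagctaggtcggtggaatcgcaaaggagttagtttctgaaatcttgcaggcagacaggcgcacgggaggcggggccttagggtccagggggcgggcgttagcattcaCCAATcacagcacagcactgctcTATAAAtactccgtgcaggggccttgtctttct
H2bc1 (chr13:23934237-23934406, minus strand): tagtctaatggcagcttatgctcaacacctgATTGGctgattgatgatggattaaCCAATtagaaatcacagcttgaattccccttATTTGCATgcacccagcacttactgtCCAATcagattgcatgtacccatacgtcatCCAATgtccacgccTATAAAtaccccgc
H2bc12 (chr13:22035571-22035820, plus strand): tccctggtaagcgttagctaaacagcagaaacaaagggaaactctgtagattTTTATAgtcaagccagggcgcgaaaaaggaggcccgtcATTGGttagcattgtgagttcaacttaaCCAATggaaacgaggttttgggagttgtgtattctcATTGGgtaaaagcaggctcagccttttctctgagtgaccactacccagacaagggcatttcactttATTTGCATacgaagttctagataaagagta
Hist1h2bp (chr13:21787238-21787487, plus strand): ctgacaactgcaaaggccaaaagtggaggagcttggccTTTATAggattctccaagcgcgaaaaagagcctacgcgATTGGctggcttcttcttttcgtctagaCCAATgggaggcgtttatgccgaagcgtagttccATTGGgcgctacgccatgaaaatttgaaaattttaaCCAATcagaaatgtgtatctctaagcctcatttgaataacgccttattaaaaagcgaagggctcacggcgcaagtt

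H1f1, H2bc1 and H2bc12 were present at every stage, at 304 to 1184, 45.3 to 164 and 88.3 to 353 FPKM, and Hist1h2bp was near 0 until the 2-cell stage. The sequences are the 250 bases before the RefSeq start, except for H2bc1, where only the first 170 of these are printed because RefSeq starts that gene next to its coding part. Each of the 4 sequences holds both CCAAT and TATAAA, and H2bc1 and H2bc12 also hold the octamer. In H1f1 the TATAAA lies 33 to 28 bases before the start, whereas in H2bc12 and Hist1h2bp it is on the other strand, 198 to 193 and 212 to 207 bases before the start. H2bc1 is divergent from H2ac1, with 220 bases shared between their promoter windows, and Hist1h2bp is divergent from Hist1h2an, with 261 bases shared. Each divergent pair thus has an H2A and an H2B gene on the 2 sides of the same stretch of DNA.

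The unit of level is FPKM, in which the fragments of a gene are divided by its length and by the size of the library. Differences are on the scale log2(FPKM + 1), which understates changes of low genes, and are given with the standard error (SE) of limma, with p-values adjusted by the Benjamini-Hochberg method over the 15184 genes that had at least 1 FPKM in at least 2 of the 26 libraries. A gene was called at an adjusted p under 0.05. Of the 66 histone genes, 63 passed that filter, and H2bc21, H3c15 and Hist1h2bq did not. The 3 that did not pass stayed under 0.92 FPKM in every library. The filter lets in a copy that is high in 1 stage only, so the 63 are not a sample of all copies. The number of reads per library is not recorded in FPKM, so the depth behind a value is unknown and no counting error could be given. Summed FPKM over all genes was 300668 to 430784 per library. Bap1 was 16.3 to 29.9 FPKM in the control libraries, 3.76 to 7.05 in the knockout libraries from FGO to E2C, and 9.69 to 11.7 in knockout L2C, and it was lower in the knockouts at every stage (limma adjusted p from 0.00369 to 0.0364). Of 11 granulosa and cumulus cell markers, 9 or 10 stayed under 1 FPKM in each group, with summed levels of 2.05 to 9.95 FPKM, lower in knockout than in control libraries at every stage, and 3 blood markers summed to at most 1.1 FPKM. Their part in the results was not tested.

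In control libraries the summed level of the 66 genes stayed in a narrow range from the oocyte to the zygote and was higher at the 2-cell stage. The sums were 1428 and 1260 FPKM in the 2 FGO libraries, 1276 and 1241 in MII, and 1375 and 1446 in L1C. They were 2529, 2484 and 3059 in E2C, and 2811 and 2788 in L2C. Every 2-cell control library was above every earlier control library. No p-value was computed for a sum. In these bulk libraries fewer cells with a transcript and less of it per cell cannot be told apart.

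**Figure D1:**
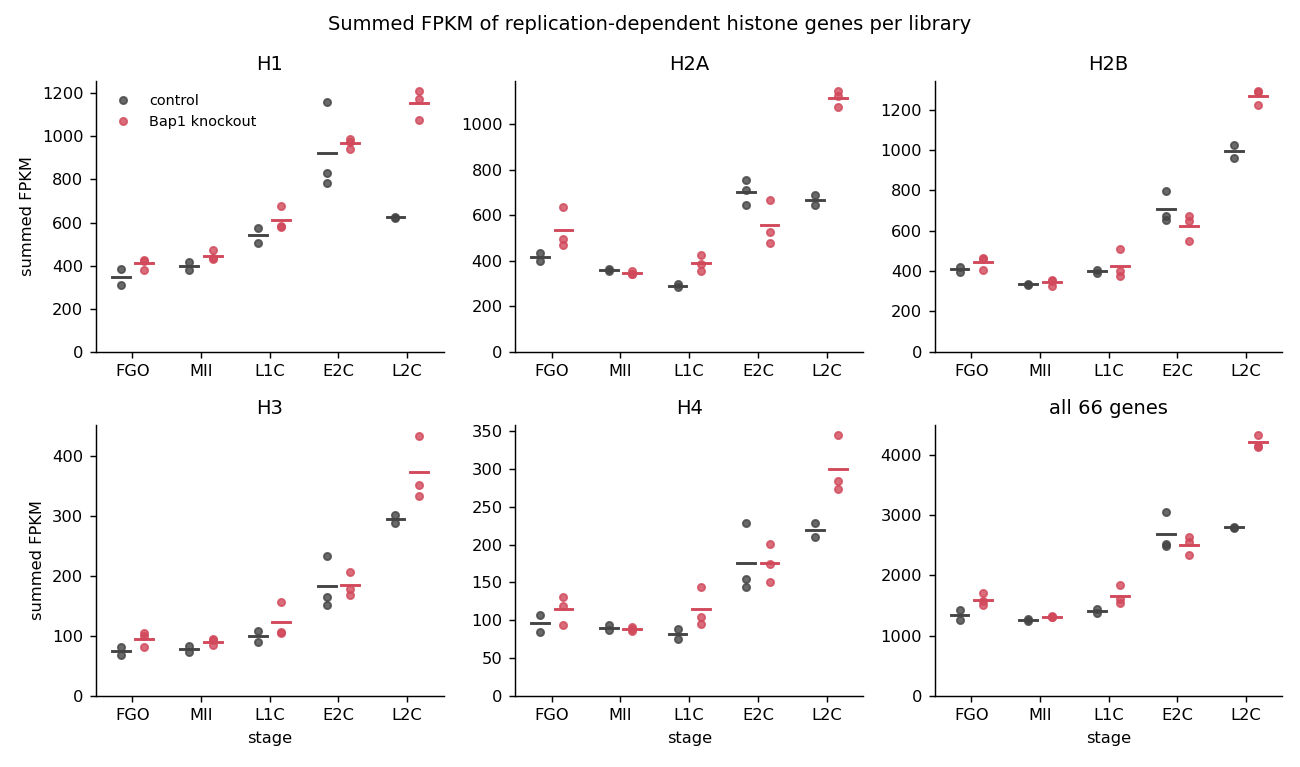
Summed FPKM of the copies of each histone type, and of all 66 genes, in each library (points) by stage, in control (grey) and Bap1 knockout (red), with bars at group means. The knockout libraries lie above the control libraries in L2C in every panel, while the groups overlap in every panel in E2C.

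The linker histone sum was almost wholly H1f1, which made up 96.3% to 98.4% of it in each group on average. H1f1 (chr13:23763666-23764406, 1 exon) had a mean of 652 FPKM over the 26 libraries and no exonic word of 50 bases in common with another gene, so its value is not divided among copies. It was 376 and 304 FPKM in control FGO, 407 and 374 in MII, 498 and 565 in L1C, 807, 767 and 1124 in E2C, and 602 and 601 in L2C. It was highest in E2C and then lower again. The rise from L1C to E2C was 0.74 (SE 0.19, limma adjusted p = 0.0364) and the fall from E2C to L2C was -0.56 (SE 0.18, limma adjusted p = 0.0496). H1f5 was under 1.7 FPKM in every oocyte, egg and zygote library, 3.53 to 9.92 in control E2C, and 13 and 14.3 in control L2C.

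The H2A sum changed in makeup from stage to stage. H2ac1 (Hist1h2aa in GENCODE, chr13:23934462-23934851), the testis-type copy, was 68.9% ± 4.19 (SD, n = 2) of the H2A sum in control FGO, 49.0% ± 0.14 (n = 2) in L1C and 15.3% ± 4.11 (n = 2) in L2C. Its own level was 287 FPKM in both control FGO libraries, 198 and 174 in MII, 145 and 139 in L1C, 163, 149 and 194 in E2C, and 117 and 85.5 in L2C. The part of the H2A sum lost by H2ac1 was taken first by H2ac18, H2ac19 and H2ac20 of the chromosome 3 cluster, which made up 22.8% of it in control FGO, 57.8% in control E2C and 31.1% in control L2C, where most reads at the H2ac18 locus were assigned to another gene model, as described with the knockout values. H2ac20 was 30.0 and 20.3 FPKM in control FGO and 139 and 169 in control L2C.

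H2bc1, the testis-type H2B gene that is divergent from H2ac1, had the same downward course in shares and was 27.2% ± 1.17 (n = 2) of the H2B sum in control FGO and 7.41% ± 0.89 (n = 2) in L2C. Its level was 118 and 105 FPKM in control FGO, 65.8 and 69.1 in MII, 60.8 and 56.4 in L1C, 65.7, 70.3 and 83.6 in E2C, and 69.7 and 77.4 in L2C. The main H2B copies were H2bc11 and H2bc12, together 47.3% of the H2B sum in control FGO and 67.5% in control L1C. H2bc11 was 106 and 86.0 FPKM in control FGO and 305 and 291 in control L2C. H2bc12 was 101 and 93.3 FPKM in control FGO and 271 and 221 in control L2C. In these 2 genes, 59.4% and 74.2% of the 50-base exonic words also occur in other H2B copies.

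H3c7 was the main H3 gene, with 42% of the H3 sum in control FGO and 59.9% in control L1C. Its level was 35.0 and 27.7 FPKM in control FGO, 82.0, 74.1 and 149 in E2C, and 122 and 125 in L2C. H4c3 was the main H4 gene at 31.9% to 37.9% of the H4 sum in the control groups, with 32.4 and 28.5 FPKM in control FGO and 77.2 and 63 in L2C. The H3 sum was 0.78 ± 0.03 (n = 2) times the H4 sum in control FGO and 1.35 ± 0.12 (n = 2) times in control L2C, and both values depend on the annotated lengths of the copies.

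**Figure D2:**
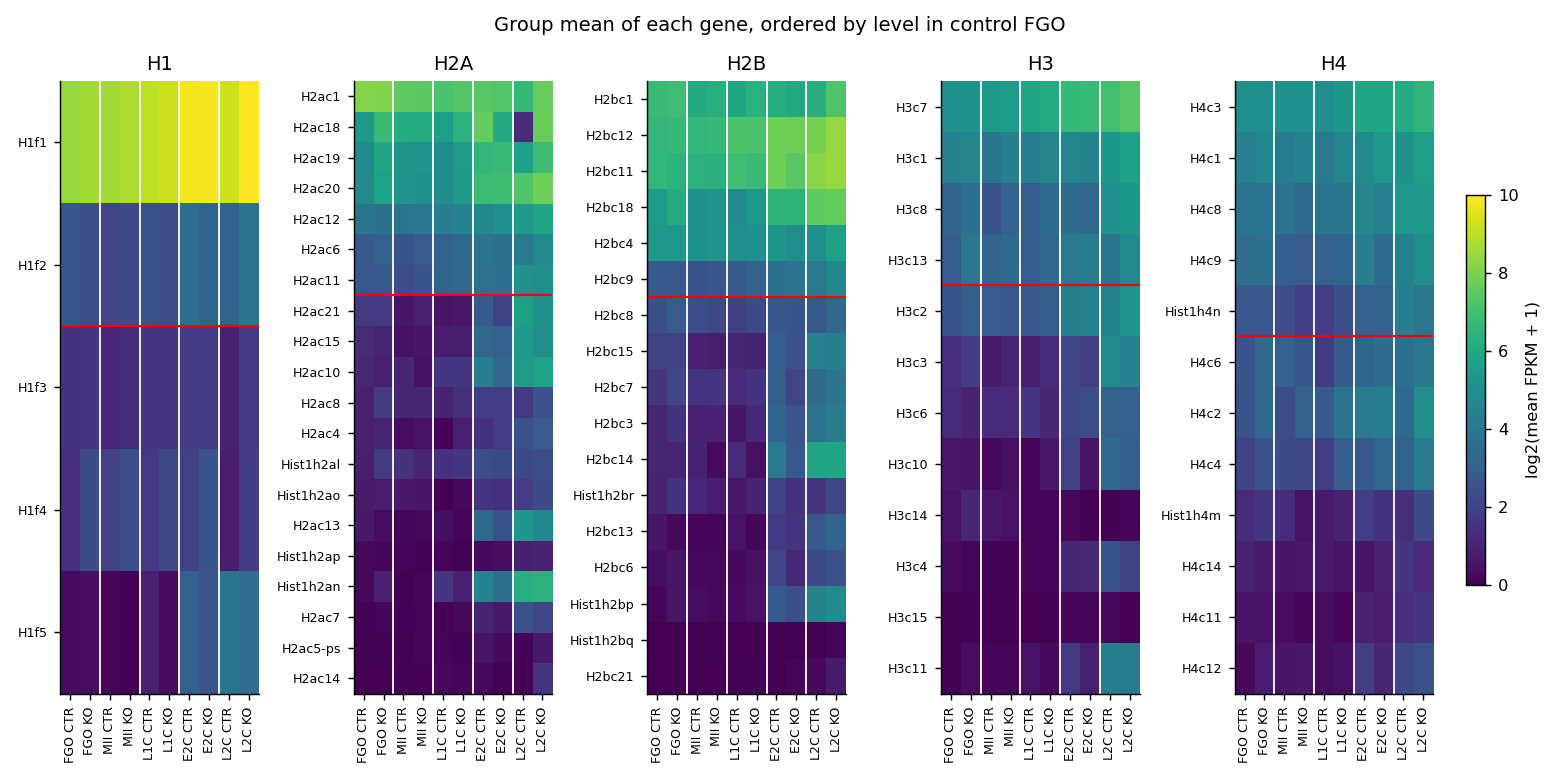
Group mean of each of the 66 genes as log2(mean FPKM + 1), in control (CTR) and knockout (KO) groups from FGO to L2C, 1 panel per histone type with genes ordered from top to bottom by their level in control FGO. The red line separates the copies at 5 FPKM or more in control FGO from those below, many of which become visible in the E2C and L2C columns only.

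Between consecutive control stages the largest change was from L1C to E2C, where 32 of the 63 genes rose and 0 fell (limma, adjusted p under 0.05), against 14.0% and 24.1% of all genes tested. The fitted difference was above 0 for 62 of 63, with a median of 1.01, against -0.08 over all genes tested. The 2 groups did not overlap for 53 of 63, all higher, against 25.9% of all genes higher and 37.7% lower. By type, 2 of 5 H1, 12 of 20 H2A, 10 of 15 H2B, 3 of 11 H3 and 5 of 12 H4 genes rose. Without control L1C replicate 1 or 2 the count was 13 or 12, with all of these higher.

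The largest rises among the called genes that were named by rule were those of Hist1h2an, an H2A gene, by 3.01 (SE 0.26, adjusted p = 0.00171), and of H2ac15, by 2.37 (SE 0.53, adjusted p = 0.0231), both by limma. Hist1h2an (chr13:21786826-21787218) was 1.11 and 2.50 FPKM in control L1C, 23.4, 21.6 and 17.8 in E2C, and 67.4 and 82.9 in L2C. Its divergent partner Hist1h2bp was 0.20 and 0.22 FPKM in control L1C, 5.11, 7.62 and 5.68 in E2C, and 21.6 and 21.4 in L2C. Both genes of the pair thus went from near 0 to over 20 FPKM. H4c6 rose by 1.53 (SE 0.15, limma adjusted p = 0.00219), after a fall of -1.40 (SE 0.13, limma adjusted p = 0.0316) from MII to L1C.

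The step from E2C to L2C had calls in both directions, 17 higher and 5 lower of 63, against 27.4% and 21% of all genes. H3 copies were 6 of the 17, and the 5 that fell were H1f1, H1f4, H2ac1, H2ac18 and H2ac19, of which H2ac18 rests on the same assignment of reads. H2ac19 has 100% of its exonic words in common with H2ac18. H2ac21, an H2A gene of the chromosome 3 cluster, rose by 2.87 (SE 0.29, limma adjusted p = 0.000876), from 6.73, 8.08 and 3.83 FPKM to 45.2 and 54.8. H3c3 rose by 2.55 (SE 0.19, limma adjusted p = 0.000407), from 3.91, 4.08 and 2.63 FPKM to 25.1 and 25.5. H3c11 rose by 2.64 (SE 0.29, limma adjusted p = 0.00114), from 3.15, 1.41 and 2.04 FPKM to 15.5 and 22, having been under 1 FPKM in every library before E2C. H3c8 rose by 1.51 (SE 0.28, limma adjusted p = 0.00707), from 11.3, 6.92 and 13.3 FPKM to 27.1 and 35.4. In control FGO H3c3, H3c8 and H3c11 ranged from at most 0.064 FPKM for H3c11 to 10.4 for H3c8. H3c1, also among the 6, rose by 0.64 and was already at 20.8 and 17.9 FPKM in control FGO. H2bc18 rose by 1.11 (SE 0.19, limma adjusted p = 0.0057), from 101, 91 and 70.2 FPKM to 216 and 164. The antisense model Gm20628 covers 100% of its exon and the same-strand model Gm42743 covers 59.3%, so its single value is uncertain. Leaving out control L2C replicate 1 or 2 left 11 calls each, 9 higher and 2 lower. With TPM scaling the split was 13 higher and 7 lower, and with median centring 13 and 9.

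The 2 steps before had few calls by this test, which does not show that levels stayed the same. From FGO to MII, 0 of 63 were called higher or lower, against 0% and 0.00659%, so the comparison had hardly any calls at all. The groups did not overlap for 9 higher and 21 lower of the 63, against 21.5% and 23.8% of all genes. From MII to L1C, H2ac6, H2bc12 and H2bc13 rose and H2ac18 and H4c6 fell, 3 and 2 of 63, against 3.87% and 7.74%. Without any 1 of the 4 libraries none of these 5 was called.

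The copies fall into those already present in the oocyte and those that are not, and the level in control FGO was used to divide them at 5 FPKM, a limit chosen after the values were seen. The 24 genes at or above it were 2 H1, 7 H2A, 6 H2B, 4 H3 and 5 H4 genes. The 42 below it were 3, 13, 11, 8 and 7. Just above the limit lay H1f2 at 5.37 FPKM and Hist1h4n at 5.64, and just below it H4c6 at 4.90, H3c2 at 4.79 and H4c2 at 4.53. The stem-loop was found in 17 of 24 and 25 of 42 of the 2 sets, and CCAAT in 18 of 21 and 32 of 37 matched promoters. TATAAA was in 11 of 21 and 23 of 37, and the octamer in 7 of 21 and 5 of 37.

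In controls the 42 low copies together were 53.6 and 46.6 FPKM in FGO and 40.6 and 46.5 in L1C. They reached a mean of 212 ± 27.7 FPKM (SD, n = 3) in E2C and 548 ± 73.6 (n = 2) in L2C. Their share of all histone FPKM was 3.73% ± 0.04 (n = 2) in FGO, 8.02% ± 1.76 (n = 3) in E2C and 19.6% ± 2.74 (n = 2) in L2C. Within H2A that share was 2.13% ± 0.02 (n = 2) in FGO and 39.8% ± 4.00 (n = 2) in L2C, while within H4 it was 16% ± 1.37 (n = 2) and 17.4% ± 0.76 (n = 2). The share went from 3.26% to 14.2% within H2B and from 12.2% to 29.8% within H3. It was thus higher in L2C than in FGO in these types and in H2A, and about level in H4. As the 42 were defined by low values in control FGO, that choice lowers their FGO share and tilts comparisons with FGO upward.

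**Figure D3:**
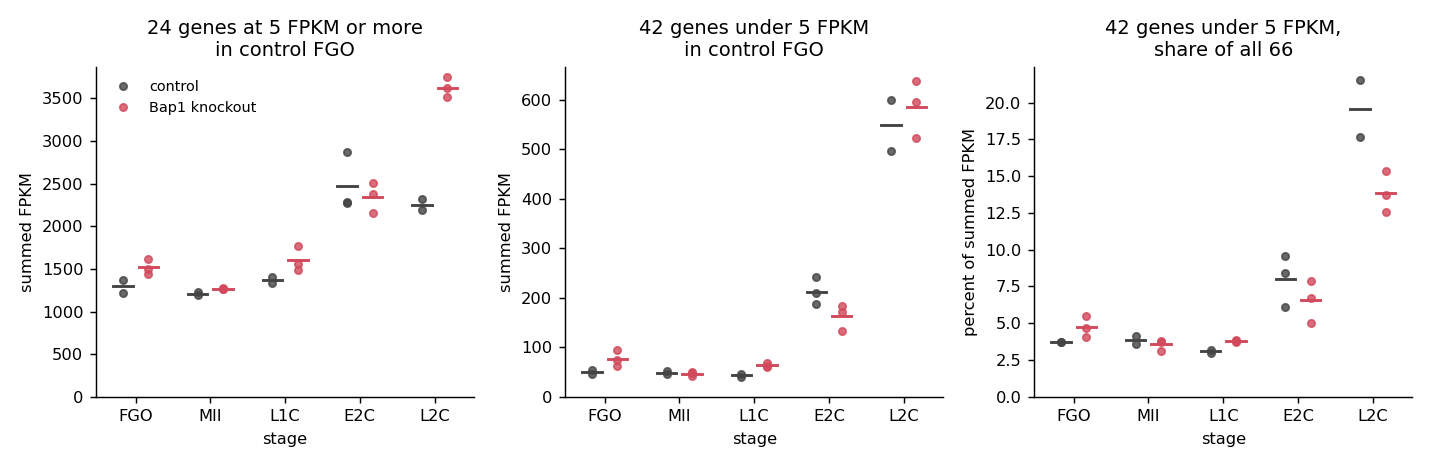
Summed FPKM of the 24 genes at 5 FPKM or more in control FGO (left) and of the 42 below (middle), and the share of the 42 in the sum of all 66 (right), per library (points) with bars at group means, control in grey and knockout in red. In L2C the knockout libraries lie above the control libraries on the left, overlap them in the middle and lie below them on the right.

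Loss of maternal BAP1 went with higher histone transcript sums in L2C. The sum of the 66 genes was 2811 and 2788 FPKM in the control libraries and 4154, 4341 and 4141 in the knockouts, a ratio of means of 1.5. H1 had the largest ratio, 1.85, with 623 and 625 FPKM in controls and 1078, 1213 and 1174 in knockouts. The ratio was 1.67 for H2A, 1.28 for H2B, 1.26 for H3 and 1.37 for H4. The H2A ratio rests in part on H2ac18, whose reads in control L2C were mostly assigned to another gene model: on the log2 scale it was 0.74 with H2ac18, 0.45 without it and 0.42 without genes overlapped by more than a miRNA model. No knockout library overlapped a control library for any of the 5 types. Histone transcripts were 0.65% and 0.69% of all FPKM in control L2C and 1.09% to 1.14% in the knockouts.

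Copy by copy, 16 of the 63 genes rose and 2 fell in knockout L2C (limma, adjusted p under 0.05), against 14.0% and 14.8% of all genes tested, since this stage had the most calls of all. In total 18 of 63 histone genes were called (28.6%), a share near the 28.8% of all genes, and it is the direction that was uneven. The median difference was 0.40 over the 63 and 0.03 over all genes tested. The groups did not overlap for 29 higher and 6 lower, against 29.1% and 27.7%. By type, 2 of 5 H1, 6 of 20 H2A, 4 of 15 H2B, 1 of 11 H3 and 3 of 12 H4 genes rose, and both genes that fell were H2A. The 6 H2A genes that rose include H2ac14, labelled a pseudogene, at 0 FPKM in both control libraries and 1.83 to 1.85 in the knockouts. Of its exonic words, 93.1% occur in H2ac13. With TPM scaling 20 rose and 0 fell, and without the filter on low genes 4 rose and 0 fell. Leaving out either control library left 7 calls, and leaving out knockout replicate 2 or 3 left 11, all higher.

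H1f1 was 602 and 601 FPKM in control L2C and 1046, 1184 and 1150 in knockout L2C, a rise of 0.90 (SE 0.09, limma adjusted p = 0.00338). Both groups of E2C lay between 767 and 1124. H1f4 was 0.42 and 1.01 FPKM in controls and 2.42, 1.66 and 2.90 in knockouts, a rise of 0.96 (SE 0.26, limma adjusted p = 0.0443) at a low level.

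The testis-type pair rose together. H2ac1 was 117 and 85.5 FPKM in control L2C and 208, 185 and 222 in the knockouts, a rise of 1.02 (SE 0.16, limma adjusted p = 0.00829). H2bc1 was 69.7 and 77.4 in controls and 145, 164 and 145 in the knockouts, a rise of 1.03 (SE 0.09, limma adjusted p = 0.00279). For both genes every knockout library lay above both control libraries. In FGO the same genes overlapped between groups, with H2ac1 at 242 to 294 FPKM and H2bc1 at 106 to 131 in the knockouts.

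Of the chromosome 3 copies, H2ac19 (chr3:96239749-96240276) was 51.8 and 51.9 FPKM in control L2C and 98.5, 137 and 109 in the knockouts, a rise of 1.12 (SE 0.15, limma adjusted p = 0.00587). However, 100% of its exonic words occur in H2ac18, whose reads were assigned differently between libraries, and the antisense model Gm20632 covers 100% of its exon. The single value of H2ac19 is thus uncertain. H2ac20 was 139 and 169 in controls and 239, 221 and 210 in the knockouts, a rise of 0.54 (SE 0.11, limma adjusted p = 0.0202). H2ac21, which lies beside H2ac20 on the other strand, went the other way, with 45.2 and 54.8 FPKM in controls and 36.3, 31.5 and 25.2 in the knockouts, a fall of -0.68 (SE 0.17, limma adjusted p = 0.0367). H2ac15 also fell, by 0.44 on the log2 scale (SE 0.10, limma adjusted p = 0.0248), from 42.3 and 39.4 FPKM to 32.5, 29.3 and 27.6. Both genes that fell were under 3.1 FPKM in every FGO library. An antisense gene model, Gm15444, covers 68.2% of the exons of H2ac21, and it is not stated whether the counting used the strand.

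The nominally largest difference of all was that of H2ac18, 6.44 (SE 0.17, limma adjusted p = 0.000921), and it rests on how reads were assigned at an overlapped locus. H2ac18 (chr3:96245497-96246082) was 1.53 and 1.28 FPKM in control L2C and 174, 252 and 202 in the knockouts. The gene model Gm20634 (chr3:96245554-96248509, 1 exon of 2956 bases, same strand) covers 90.3% of the H2ac18 exon, and 89.2% of the exonic words of H2ac18 occur in H2ac19. Gm20634 also covers 100% of the exon of H3c14, an H3 gene on the same strand whose highest value was 1.26 FPKM. Its fragments may thus come from either gene. In 4 libraries, both control L2C and knockout E2C replicates 1 and 3, H2ac18 was at 1.16 to 2.34 FPKM while H2ac19 was at 51.8 to 138. In those 4, Gm20634 had 60.2 to 162 units of FPKM times exonic length in kb, against 5.40 to 28.1 in the other 22. The 2 genes together gave 68.4 and 60.9 such units in control L2C and 116, 176 and 134 in the knockouts. Together they gave 125, 154 and 111 in control E2C and 106, 135 and 163 in knockout E2C, which overlap. With the fragments of Gm20634 added, the log2 ratio of the H2A sum in L2C was 0.61 and without H2ac18 it was 0.45, against 0.74 as deposited. The value of 0.61 counts every Gm20634 fragment as H2A, and whether some came from H3c14 was not tested.

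**Figure D4:**
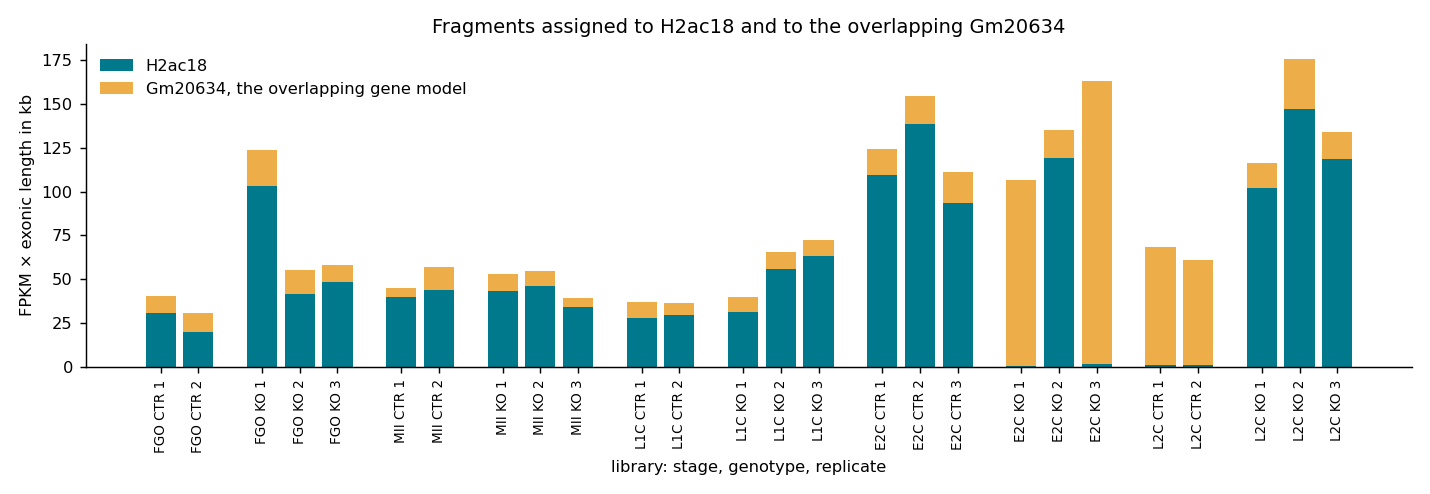
FPKM times exonic length in kb, a measure in proportion to fragments, for H2ac18 (teal) and the gene model Gm20634 that overlaps it (yellow), stacked for each of the 26 libraries. In 4 libraries, both of control L2C and 2 of knockout E2C, nearly all of the bar belongs to Gm20634, and in E2C the height of the whole bar overlaps between the groups.

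Among H2B genes, H2bc4, H2bc9 and H2bc12 rose as well. H2bc12 was 271 and 221 FPKM in control L2C and 342, 317 and 353 in the knockouts, a rise of 0.46 (SE 0.11, limma adjusted p = 0.0306). H2bc4 was 29.8 and 33.2 in controls and 61.0, 45.4 and 47.0 in the knockouts. H2bc9 rose by 0.63 (SE 0.12, limma adjusted p = 0.0155), from 13.9 and 17.3 FPKM to 23.4, 24.7 and 25.6. H2bc18, a copy of the chromosome 3 cluster, was 216 and 164 in controls and 190, 200 and 197 in the knockouts, which overlap. Its single value is uncertain, since other gene models cover its exon. H2bc11, at 305 and 291 against 360, 320 and 368 FPKM, did not overlap between groups but was not called.

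H3c7 was the only H3 gene called in L2C, with 122 and 125 FPKM in controls and 160, 182 and 159 in knockouts, a rise of 0.43 (SE 0.08, limma adjusted p = 0.0165). H3c1 was 42.1 and 35.3 FPKM in controls and 54.3, 57.3 and 43 in knockouts, and H3c8 was 27.1 and 35.4 against 32.1, 48.9 and 32.9, neither of them called. H3c3 was lower in every knockout library without being called, at 25.1 and 25.5 FPKM in controls and 20, 21.7 and 18.9 in knockouts (-0.31, SE 0.09, limma adjusted p = 0.0579). Among H4 genes, H4c2 was 9.71 and 9.57 FPKM in controls and 28.0, 38.7 and 21.4 in the knockouts, a rise of 1.48 (SE 0.24, limma adjusted p = 0.0102). H4c1 rose by 0.57 (SE 0.13, limma adjusted p = 0.0277) from 32.4 and 33.7 FPKM to 42, 53 and 55.1. H4c4 rose by 0.93 (SE 0.24, limma adjusted p = 0.0404). H4c3, the most abundant H4 copy, was 77.2 and 63 against 102, 90.3 and 87.1 FPKM and was not called. An antisense gene covers 56.2% of the exon of H4c2, and 75.9% of its words occur in other genes, so its single value is uncertain.

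**Figure D5:**
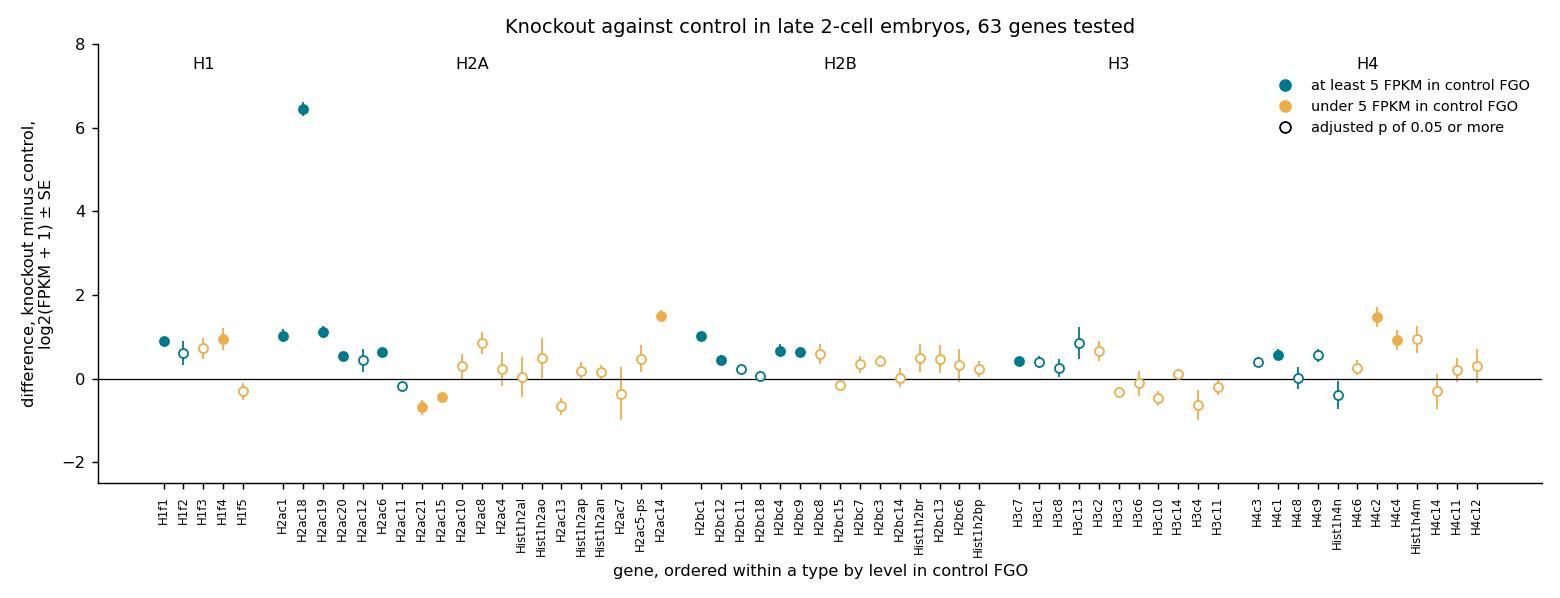
Difference of each of the 63 genes tested between knockout and control L2C on the log2(FPKM + 1) scale, with SE bars, by histone type and ordered within a type by the level in control FGO. Filled points passed the test (16 above 0, 2 below), and the copies at 5 FPKM or more in control FGO are teal and the others yellow.

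By calls and summed FPKM, the rise in L2C lay mostly in copies that the oocyte already held. Of the 24 at 5 FPKM or more in control FGO, 12 rose and 0 fell in knockout L2C, where 21.3% of the 7026 genes at such a level rose and 14.7% fell. Of the 39 tested below 5 FPKM, 4 rose and 2 fell, where 7.76% of 8158 genes rose and 14.9% fell. The fitted differences of both sets were mostly above 0, for 22 of the 24 and 27 of the 39. Their medians were 0.55 and 0.24, against 0.12 and -0.03 for all genes of the same level. From E2C to L2C the knockout effect changed by a median of 0.56 in the 24 and 0.57 in the 39. The 24 summed to 2315 and 2188 FPKM in control L2C and to 3517, 3746 and 3619 in the knockouts, and without H2ac18 to 2314 and 2187 and to 3343, 3494 and 3417. The 42 low copies summed to 496 and 600 in controls and to between 521 and 637 in the knockouts, so the groups overlapped. Their share of all histone FPKM was 17.6% and 21.5% in controls and 12.6% to 15.3% in knockouts, and without H2ac18 it was 13.2% to 16% in knockouts. Hist1h2an, at 67.4 and 82.9 FPKM in controls and 102, 71.7 and 81.5 in the knockouts, and Hist1h2bp, at 21.6 and 21.4 against 32.6, 24.3 and 20.7, were of this kind. In FGO the 42 low copies summed to 53.6 and 46.6 FPKM in controls and 93.5, 73.8 and 61.5 in knockouts. They were chosen by low values in these same control FGO libraries, which by itself tilts that comparison toward higher knockout values. In L1C they summed to 40.6 and 46.5 FPKM against 68.9, 59.9 and 61.6. In E2C they were lower in the knockouts, 172, 133 and 184 against 242, 209 and 187. Whether the 2 sets of copies differ was not tested.

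Markers of stage moved in the same libraries. The sum of 7 oocyte markers was 478 to 503 FPKM in control L2C and 776 to 904 in knockouts, with 5 of 7 called higher. The sum of 6 markers of the 2-cell embryo was 128 to 142 in control L2C and 314 to 417 in knockouts, with 5 higher and 1 lower. In E2C that sum was 205 to 270 in controls and 80.6 to 177 in knockouts, with 0 of 6 called. Their part in the histone results was not tested.

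In each of the earlier stages 1 histone gene was called by genotype, a count that depended on the settings. Without the filter on low genes the count over FGO, MII, L1C and E2C was 16, 11, 22 and 0, with all 26 libraries in 1 fit and weights per stage it was 8, 3, 6 and 2, and in the same fit without weights it was 11 in E2C. In FGO, 1 of 63 rose and 0 fell, against 0.692% and 4.97% of all genes. The gene was Hist1h2bp, at 0.16 and 0.10 FPKM in controls and 0.51, 0.38 and 0.48 in the knockouts, with a difference of 0.37 (SE 0.05, limma adjusted p = 0.0398) at a level under 1 FPKM in every library. Of the 5 fits with 1 library left out, only the one without control replicate 1 called it. The sum of the 66 genes was 1428 and 1260 FPKM in controls and 1704, 1571 and 1507 in knockouts, a ratio of 1.19 with no overlap. The groups did not overlap for 21 genes higher and 2 lower, against 17.7% and 24.1%. In knockout FGO replicate 1, H2ac18 at 176 FPKM against 71.1 and 82.5 in the other knockouts, was the highest of that stage, as were H2ac19 at 91.9 and H2ac20 at 90. Without that library the log2 ratio of the H2A sum was 0.20, against 0.35 with it.

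In MII, 0 of 63 rose and 1 fell, against 1.84% and 4.57%. This was H4c8, at 12.2 and 13.2 FPKM in controls and 9.49, 9.53 and 9.07 in knockouts, a difference of -0.40 (SE 0.05, limma adjusted p = 0.0371). It was not called without any 1 of the 3 knockout libraries. The summed ratio was 1.05, with 1276 and 1241 FPKM in controls and 1316, 1323 and 1308 in knockouts and no overlap. The groups did not overlap for 9 genes higher and 6 lower, against 19.8% and 21.9%.

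In L1C, 1 rose and 0 fell, against 2.03% and 4.83%. This was H4c6, at 1.95 and 2.50 FPKM in controls and 6.53, 5.47 and 6.51 in knockouts, a difference of 1.15 (SE 0.14, limma adjusted p = 0.0252). It was not called without any 1 of the 5 libraries of that stage. The summed ratio was 1.18, with 1375 and 1446 FPKM in controls and 1840, 1544 and 1614 in knockouts and no overlap. The groups did not overlap for 21 genes higher and 2 lower, against 22% and 20.9%.

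In E2C, 0 of 63 rose and 1 fell, against 1.83% and 3.07%. This was Hist1h2an, at 23.4, 21.6 and 17.8 FPKM in controls and 12.3, 10.1 and 12.9 in knockouts, a difference of -0.78 (SE 0.15, limma adjusted p = 0.0415). With values scaled to TPM its adjusted p by limma was 0.0604. Of the 6 fits with 1 library left out, 1 gave a call of a gene that fell, the one without knockout replicate 2. Hist1h2bp, its divergent partner, was 5.11, 7.62 and 5.68 in controls and 1.95, 5.63 and 5.80 in knockouts, which overlap. The sum of the 66 was 2529, 2484 and 3059 FPKM in controls and 2547, 2638 and 2337 in knockouts, a ratio of 0.93. The groups did not overlap for 3 genes higher and 8 lower, against 14.6% and 15.1%. E2C also had the widest spread within groups of the 5 stages, a median SD of 0.26 over genes on the log2 scale against 0.11 in MII.

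The knockout effect itself differed between E2C and L2C for 12 of 63 genes, all with a higher value in L2C, against 7.96% of all genes higher and 7.18% lower (limma interaction contrast). H1f1 was among them, at 964, 957 and 921 FPKM in knockout E2C against 807, 767 and 1124 in controls. Its level in controls fell from E2C to L2C, and in the knockouts it was 1046 to 1184 in L2C. Without control L2C replicate 1 or 2 the count was 5 or 6, all higher. The change of the effect from MII to L1C was called for H4c6 alone, 1 of 63, against 0.00659% of all genes higher and 0.0198% lower. From FGO to MII it was called for 0 of 63, against 0% and 0.00659%, and from L1C to E2C for 0 of 63, against 0.138% and 0.211%.

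The next list was drawn up for genes that process and destroy histone mRNA, and 30 of its genes were tested. It also holds genes with other roles, among them the transcription factor Tfap4. In L2C 4 rose and 7 fell, against 14.0% and 14.8% of all genes. In E2C 3 rose and 1 fell, against 1.83% and 3.07%, and in L1C 3 rose and 1 fell, against 2.03% and 4.83%. In MII only Tfap4 rose, against 1.84%, and in FGO none was called. Slbp, the stem-loop binding protein, was 371 ± 31.2 FPKM (n = 2) in control FGO and 444 ± 20.5 (n = 3) in knockouts, and 492 ± 44.4 (n = 2) and 520 ± 17.1 (n = 3) in L1C. It was 427 ± 26.6 (n = 3) in control E2C and 654 ± 71.1 (n = 3) in knockout E2C, a rise of 0.61 (SE 0.11, limma adjusted p = 0.0382). In L2C it was 129 ± 23.2 (n = 2) and 231 ± 9.92 (n = 3), a rise of 0.85 (SE 0.12, limma adjusted p = 0.00715). In MII Slbp was 398 ± 39.7 (n = 2) and 495 ± 16.2 (n = 3), a difference of 0.32 (SE 0.09, limma adjusted p = 0.1215). Slbp was called in the 2-cell stages and in none of the 3 earlier ones, which by itself shows no difference between stages. By limma's interaction contrast, the knockout effect changed from L1C to E2C for 0 of the 30 genes, Slbp among them. Upf1, an RNA helicase that acts in histone mRNA decay, rose in L1C from 39.7 to 54.8 FPKM (adjusted p = 0.0281) and in E2C from 21.2 to 42.3 (adjusted p = 0.0324), both by limma. Ncbp2, the cap-binding subunit, fell in L2C from 25.9 to 10.7 FPKM (limma adjusted p = 0.00269), and Zfp473, a zinc finger protein of the U7 snRNP pathway, rose from 1.07 to 3.67 (limma adjusted p = 0.0314). In L1C Cstf2t fell from 2.78 to 1.47 FPKM (limma adjusted p = 0.0465), in MII Tfap4 rose from 3.44 to 5.53 (limma adjusted p = 0.0456), and in E2C Tut4, a uridylyltransferase, fell from 1.51 to 0.25 (limma adjusted p = 0.0333).

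Of 16 histone genes tested that are expressed outside S phase, 1 rose and 4 fell in L2C, against 14.0% and 14.8% of all genes. Their median difference in L2C was 0.11, against 0.03 over all genes tested. From E2C to L2C the knockout effect changed for 2 higher and 0 lower of the 16 (limma interaction contrast), against 7.96% and 7.18% of all genes. H3f3b, which encodes the replacement histone H3.3, rose from 161 ± 27.7 FPKM (n = 2) to 237 ± 10.2 (n = 3), by 0.57 (SE 0.12, limma adjusted p = 0.0206). H2az2, an H2A.Z gene, fell from 15.9 ± 2.85 (n = 2) to 9.09 ± 0.91 (n = 3), by 0.73 on the log2 scale (SE 0.15, limma adjusted p = 0.021). In FGO, L1C and E2C 0 of the 16 were called, and in MII the pseudogene H2bu1-ps fell from 0.92 to 0.20 FPKM (limma adjusted p = 0.0429). The difference between the 2 kinds of histone gene was not tested.

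Of 28 histone chaperone genes tested, 3 rose and 4 fell in L2C, shares near the 14.0% and 14.8% of all genes. Npm2, the nucleoplasmin that the egg stores, rose from 81.1 ± 7.15 FPKM (n = 2) to 155 ± 20.3 (n = 3), by 0.92 (SE 0.13, limma adjusted p = 0.00721). Ipo4, an importin that carries H3 and H4, fell from 10.5 ± 0.84 (n = 2) to 4.18 ± 0.61 (n = 3), by 1.16 on the log2 scale (SE 0.17, limma adjusted p = 0.00712). Atrx, the remodeller that works with DAXX to deposit H3.3, fell from 111 to 71.5 FPKM in FGO (limma adjusted p = 0.00602) and from 96.3 to 57.8 in L1C (limma adjusted p = 0.0189). Nap1l4, an H2A-H2B chaperone, rose from 91.4 to 112 in MII (limma adjusted p = 0.0191) and from 111 to 132 in L1C (limma adjusted p = 0.0434).

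The list of S phase genes, of which 47 were tested, also holds genes that restrain entry into S phase, among them Rbl2 and E2f5. In L2C 4 of the 47 rose and 10 fell, where 14.0% of all genes rose and 14.8% fell. In MII 1 rose, in L1C 2 rose and 1 fell, and in FGO and E2C 0 were called. E2f5 rose in L2C from 192 ± 8.65 FPKM (n = 2) to 420 ± 28.9 (n = 3), by 1.12 (SE 0.09, limma adjusted p = 0.0024). Gins3, a subunit of the replicative helicase, fell from 8.07 ± 0.31 (n = 2) to 0.87 ± 0.34 (n = 3), by 2.29 on the log2 scale (SE 0.22, limma adjusted p = 0.00319). Ccne2, cyclin E2, rose in MII from 30.8 to 42.1 FPKM (limma adjusted p = 0.0306). In L1C Rbl2 rose from 0.97 to 2.31 FPKM (limma adjusted p = 0.0251) and Orc1 fell from 25.4 to 21.7 (limma adjusted p = 0.0494).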

How the data were processed

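The deposited values are FPKM per gene for 26 total RNA libraries, made with the SMART-Seq Stranded kit per the labels' protocols, in a table whose headers call them rpkm. The submitters' processing notes name Trim Galore 0.6.6, STAR 2.7.9, StringTie 2.1.7 and mm10, with no role given, and the annotation and strand setting used for counting are not given in the sources used here. The poly(A) libraries of a later stage were not used here. Every column was matched to its sample by name, with 0 columns left over. Of the 66 histone gene identifiers, 66 were found in the GENCODE M21 annotation and 64 had an unchanged version number. That annotation gave positions, exons and stem-loops, and RefSeq gave promoters.

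Tests used limma 3.58.1 (R 4.3.3), with a trend in its empirical Bayes step, on log2(FPKM + 1) and Benjamini-Hochberg adjustment, with 1 fit per stage because the spread within groups differed between stages, 2 control groups for stage changes, and 4 groups for interactions. The script was tested on simulated data. Tables and plots used Python 3.11.15, pandas 2.3.3 and matplotlib 3.10.9. Sums of FPKM per histone type were described without a test.

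The genes named were the 3 most abundant of each type, those called with the largest change at each stage, H2ac1, H2bc1 and H2ac18 with Gm20634, and in each other list the gene with the largest change in each direction, with Slbp. The other histone genes with values here were added after these were seen. The members and lists were chosen with earlier results of these data known. Alternatives tried were a pseudocount of 0.1, no filter, TPM scaling, a filter at a mean of 5 FPKM, median centring, all 26 libraries in 1 fit, the same with weights per stage, the replicate number as a block, and each library left out. For sums they were division by the library median, fragments in place of FPKM, and leaving out overlapped genes. Leaving out H2ac18 or only genes overlapped by more than a miRNA model, adding Gm20634, and the division at 5 FPKM were chosen after seeing the data.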

Additional observations from a re-analysis of the deposited data

Results flagged for a closer look

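The knockout effect on 13 histone genes differed between consecutive stages by limma's interaction contrast, with adjusted p-values over all 15184 genes tested. From E2C to L2C the difference of the effect, on the log2 scale, was 0.81 for H1f1 (adjusted p = 0.0148), 1.13 for H2ac1 (adjusted p = 0.00861), 1.24 for H2bc1 (adjusted p = 0.00869), 0.98 for H2ac19 (adjusted p = 0.0345) and 0.73 for H2ac6 (adjusted p = 0.0233). It was 1.06 for H2bc4 (adjusted p = 0.0045), 1.18 for H2bc7 (adjusted p = 0.0163), 1.33 for H4c2 (adjusted p = 0.0289), 1.38 for H4c9 (adjusted p = 0.0205) and 0.95 for Hist1h2an (adjusted p = 0.0194). For H2ac14, labelled a pseudogene, it was 1.63 (adjusted p = 0.00207), with levels of at most 1.85 FPKM in any library. For H2ac18 it was 10.52 (SE 1.87, adjusted p = 0.00406), and both stages hold libraries in which the reads of this locus were assigned to Gm20634. From MII to L1C the difference was 1.57 for H4c6 (SE 0.15, adjusted p = 0.0494). The 13 values were positive, that is, the knockout was higher relative to control in the later stage.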

How the results depend on the processing

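Counts of called histone genes depended on the filter and on single libraries. For knockout against control in FGO, MII, L1C, E2C and L2C the count was 1, 1, 1, 1 and 18. Without the filter it was 16, 11, 22, 0 and 4. With median centring it was 4 in FGO, 3 in MII and 4 in L1C. With all 26 libraries in 1 fit it was 0 in MII, 3 in L1C and 11 in E2C. With weights per stage it was 8, 3, 6, 2 and 9. With a mean of at least 5 FPKM it was 2 in FGO, 3 in MII and 2 in L1C, and with TPM scaling 0 in E2C. Leaving out 1 library gave 0 to 1 in FGO, 0 to 1 in MII, 0 to 0 in L1C, 0 to 1 in E2C and 7 to 15 in L2C. In L2C all calls were higher under TPM scaling (20) and under 1 fit of all libraries (17). Between control stages the counts of 0, 5, 32 and 22 became 20, 20, 50 and 7 without the filter. Centring gave 2 from FGO to MII and 13 from MII to L1C, and the split from E2C to L2C became 13 higher and 9 lower. The fit of all libraries gave 34 from E2C to L2C, 27 higher and 7 lower. Leaving out 1 library gave 0 to 0, 0 to 0, 12 to 36 and 11 to 26. For the difference of effects, the count of 1 from MII to L1C was 0 with centring and 0 in the fit of all libraries, 0 to 2 with 1 library left out. That of 0 from L1C to E2C was 2 in the fit of all libraries and 0 to 1 with 1 left out. That of 12 from E2C to L2C was 2 without the filter and 5 to 12 with 1 left out. The cause was not tested.

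With the replicate number as a block, 0 genes were called in each of the 5 stages, 0 from control MII to L1C, 0 for the effect from MII to L1C and 5 for that from E2C to L2C. The deviations of libraries with the same number had correlations of -0.08 to 0.14. Outside E2C the deviations of the control libraries of a stage mirror each other. Their correlations with a knockout library are thus equal and opposite, such as -0.142 and 0.142 in MII. These values cannot show whether libraries with the same number shared more than that number. The labels name no pairing, so none was assumed in the main fits, and whether the libraries were paired remains unknown.

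For sums the log2 ratio of knockout to control moved as follows. TPM scaling gave 1.03 for H1, 0.89 for H2A, 0.49 for H2B and 0.73 for all in L2C, and -0.017 for H2A and 0.10 for all in MII, while it moved the median of all genes in L2C from 0.03 to 0.16. Division by the library median gave 0.30 for H1, 0.084 for H2A, 0.18 for H2B, 0.35 for H3, 0.10 for H4 and 0.20 for all in MII, 0.23 for H2B and 0.35 for all in FGO, and 0.63 for all in L2C. Fragments gave -0.0187 for H2A and 0.088 for all in MII, and 0.82 for H2A and 0.63 for all in L2C. With Gm20634 added they gave -0.013 for H2A in E2C, 0.61 for H2A in L2C and 0.085 for all in MII. Without H2ac18 the ratio was -0.0586 for H2A in E2C, 0.45 for H2A in L2C and 0.52 for all in L2C. Without genes overlapped by more than a miRNA model it was 0.070, 0.27, -0.10 and 0.42 for H2A in FGO, L1C, E2C and L2C, 0.41 for H2B in L2C, and 0.13 and 0.54 for all in FGO and L2C. Without any overlapped gene it was 0.41 for H2B in L2C and 0.10 for all in MII, and H2A had no value because each of its genes is overlapped. With 1 library left out it was 0.089 to 0.39 for H1 in FGO and 0.044 to 0.084 for all in MII. Slbp in L1C, which was not called, ranged from -0.0085 to 0.18 with 1 library left out. Of the settings tried for 89 results on single genes, called or not, 757 kept the direction and the side of the threshold, 393 kept the direction but no longer passed, 4 newly passed, and 1, that of Slbp, changed sign.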
